A study of Bos taurus with 24 samples.

Results

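The genes examined here, 9 in all, seal the outer epithelium of the bovine blastocyst or move ions and water across it. They are CDH1, CLDN4, CLDN6, CLDN7, TJP1, OCLN, ATP1B1, AQP3 and AQP11, chosen by symbol for these functions. Of the 9 genes, 7 were found under their symbol among the 24621 genes counted, TJP1 was read from the row with its older symbol ZO1, which makes 8, and CDH1 was not analysed here.

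A blastocyst forms when the outer cells of the embryo, the trophectoderm, become a sealed epithelium and a fluid-filled cavity, the blastocoel, opens inside. E-cadherin, encoded by CDH1, holds the cells together at adherens junctions. Tight junctions close the space between neighbouring cells: claudins such as CLDN4, CLDN6 and CLDN7 form the paracellular strands, occludin (OCLN) is a further membrane protein of the strands, and TJP1 (ZO-1) is the scaffold that ties them to the actin skeleton. The sodium pump, of which ATP1B1 is a beta subunit, exports sodium into the cavity. Water follows the ions, partly through aquaporins. AQP3 is a water and glycerol channel of the cell membrane, and AQP11 is a distant member of the family found mostly on membranes inside the cell.

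The 24 samples were single early blastocysts of embryo quality 1, each constituting 1 replicate, all sired by the same Holstein bull. The 8 in vivo derived embryos (5 male, 3 female) came from 3 superovulated Holstein cows. The 16 in vitro embryos came from slaughterhouse oocytes of Holstein cows in 3 independent experiments: 8 (3 male, 5 female) were matured and cultured with fetal bovine serum, and 8 (5 male, 3 female) were matured with epidermal growth factor and cultured in synthetic oviduct fluid with bovine serum albumin, insulin, transferrin and selenium (serum-free). The in vivo embryos were flushed a week after insemination, and the in vitro embryos were harvested at that age or a day earlier, so age was not matched. Embryos are named by their codes, A for in vivo, B for serum and C for serum-free. The labels give no donor cow, experiment or sequencing lane for any single embryo, so none of these could be told apart from the embryo itself, and p-values measure the spread between these embryos. Total exon counts per embryo were between 3253051 and 9000447, with a median of 4454031.

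Levels are given as CPM, exon counts scaled by each embryo's total and its TMM factor. Without gene lengths, levels of different genes were not compared with each other. A log2 fold change is serum or serum-free over in vivo, or serum over serum-free, and is given with its approximate standard error (SE). A gene was called when the p-value of edgeR's quasi-likelihood test, adjusted by Benjamini-Hochberg over all genes tested, was under 0.05 and the change was at least 2-fold. The test was run on genes with 15 counts or more in all embryos of 1 or more of the groups compared.

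The first question was how these genes in embryos produced with serum compared with those in in vivo derived embryos. CLDN4, CLDN7 and OCLN were lower in serum embryos, by 4.18-fold, 5.06-fold and 2.63-fold, AQP3 was 2.02-fold higher, and CLDN6 was 1.60-fold lower. TJP1 and AQP11 did not pass the test. Of the 7 genes tested, 4 were called, against 13.8% of all 7339 genes. The 3 called lower stood against 7.34% of all genes called lower, and the 1 called higher against 6.43%. Of the 3, CLDN4 and CLDN7 reached the count limit in the in vivo embryos only, and so entered because they were higher there. With 15 counts asked of every embryo in both groups, 1 gene was called. The counts of calls are thus no support of a direction. At any fold, 5 of the 7 passed, against 28.3%. The 2 groups of embryos did not overlap for OCLN and CLDN6, 2 of the 7, against 7.13%. Whether there were fewer trophectoderm cells or less RNA of these genes per cell cannot be told apart in whole embryos.

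**Figure D1:**
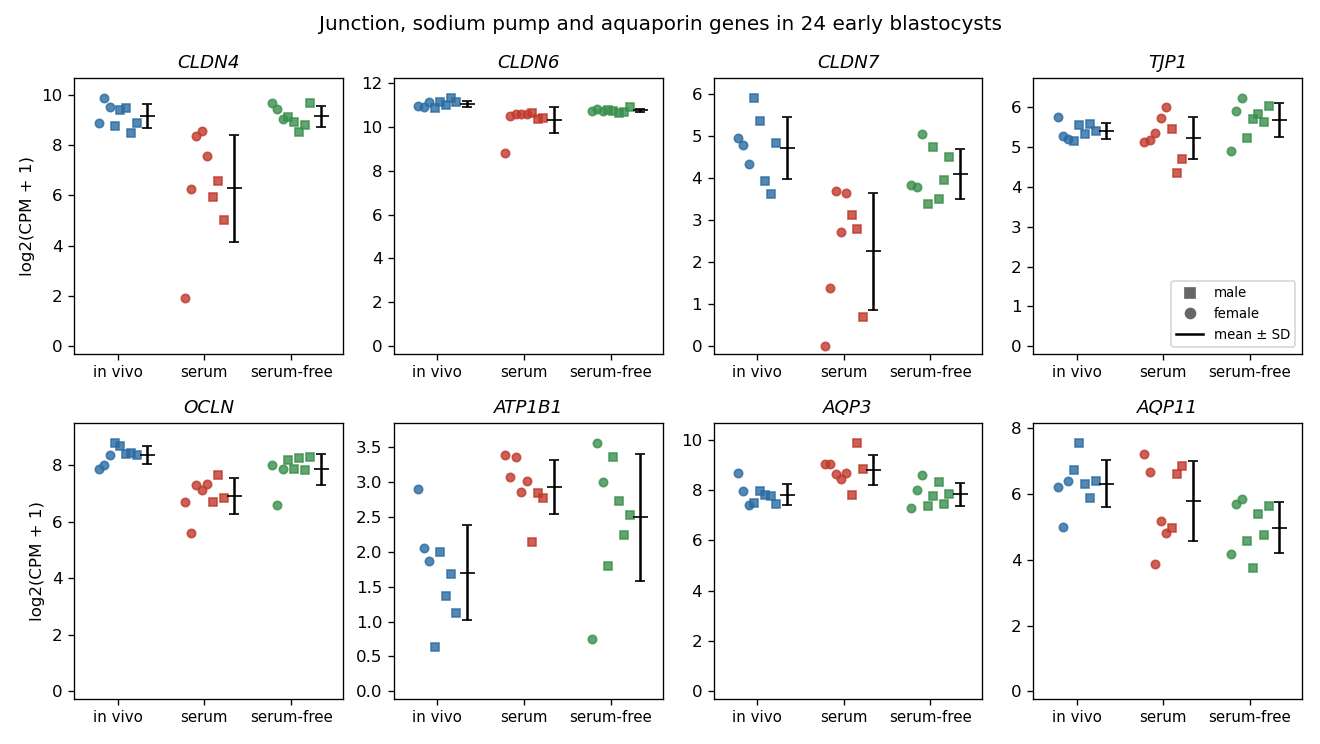
Level of each of the 8 genes as log2(CPM + 1) on the vertical axis, for in vivo, serum and serum-free embryos; squares are male and circles female embryos, 8 embryos per condition, and black bars give the mean ± SD. In serum embryos OCLN and CLDN6 lay below every in vivo embryo, and CLDN4 was spread from 2.84 to 374.9 CPM.

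CLDN4 encodes a claudin of tight epithelia. In in vivo embryos it ranged from 356.2 to 934.1 CPM with a median of 574.5. The serum embryos held 2.84 (B2), 31.4 (B7), 59.7 (B1), 76.0 (B3), 94.7 (B5), 191.4 (B8), 327.0 (B4) and 374.9 CPM (B6), with a median of 85.4. Thus 7 of the 8 serum embryos lay below the in vivo range, and B6 lay just inside it. On the log2 scale the change was -2.07 (SE 0.57, adjusted p = 0.0115). In B2 the value rested on 12 counts, so CLDN4 entered the test through the in vivo embryos; without B2 it was -1.85 (adjusted p = 0.00312). The SD of log2(CPM + 1) was 2.13 among serum embryos, 0.48 among in vivo and 0.42 among serum-free embryos, where the median over 6766 genes was 0.58, 0.35 and 0.44. Without B2 the serum SD was 1.31. The 90th percentile over genes was 1.23, but in all 8 serum embryos with B2 included.

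CLDN7, a claudin also found along lateral cell membranes, ranged from 11.3 to 59.0 CPM in vivo, with a median of 27.3. Serum embryos held 0 CPM (B2), 0.615 (B7), 1.62 (B3), 5.59 (B6), 5.96 (B5), 7.71 (B1), 11.6 (B8) and 11.9 (B4). Here 6 of the 8 lay below the in vivo range, and B4 and B8 were at its lower edge. CLDN7 changed by -2.34 on the log2 scale (SE 0.58, adjusted p = 0.00656) and also entered the test through the in vivo embryos, since B2, B7 and B3 held 0, 2 and 7 counts.

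OCLN separated the groups completely. In vivo embryos held 230.6 to 436.9 CPM (median 330.6) and serum embryos 47.1 to 200.8 CPM (median 126.5). The lowest serum embryo was B3 and the highest B5. OCLN changed by -1.39 on the log2 scale (SE 0.22, adjusted p = 3.342e-04), and all embryos of both groups were above the count limit for OCLN.

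CLDN6, a claudin typical of embryonic epithelia, was the steadiest of the claudins. In vivo embryos held 1873 to 2515 CPM (median 2120), and 7 serum embryos held 1312 to 1586 CPM. B2 stood apart at 450.2 CPM. The change passed the test at less than 2-fold (log2 fold change -0.68, SE 0.18, adjusted p = 0.0102), and without B2 it was -0.52 (adjusted p = 8.455e-04).

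**Figure D2:**
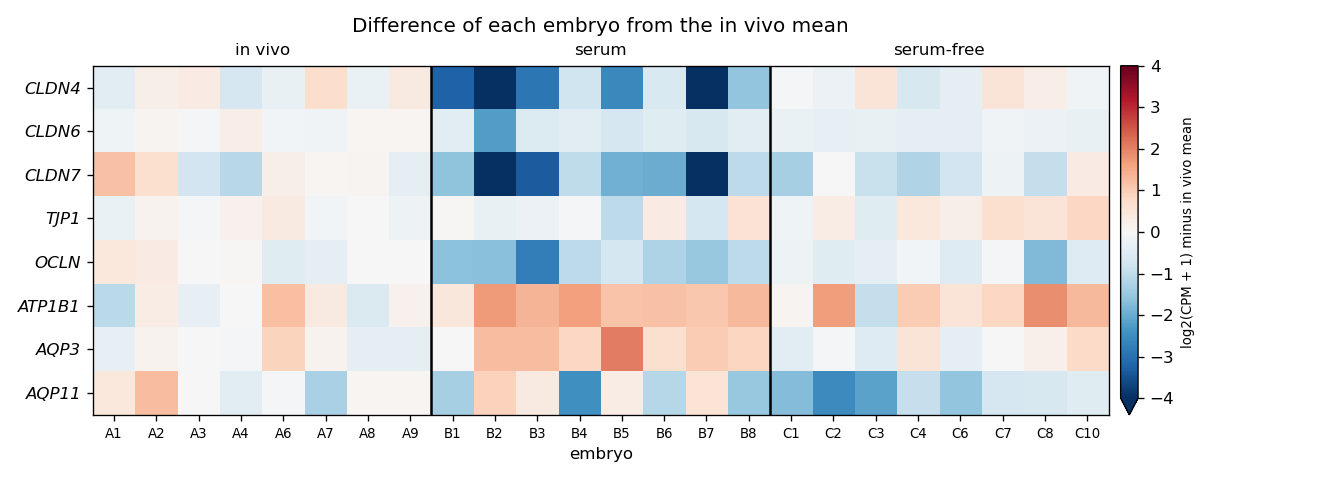
Difference of each embryo (columns, A in vivo, B serum, C serum-free) from the in vivo mean for each gene (rows), on the log2(CPM + 1) scale, blue lower and red higher. The colour scale ends at 4, and the lowest values, CLDN4 in B2 and B7 and CLDN7 in B2 and B7, lie past its end; OCLN is blue in all 8 serum embryos.

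The ratio of CLDN4 to CLDN6 counts within an embryo does not depend on scaling between libraries. It was 0.142 to 0.493 in vivo (median 0.269), 0.228 to 0.475 in serum-free embryos (median 0.311) and 0.0063 to 0.248 in serum embryos (median 0.0626). The serum median thus lay below the lowest ratio of either other condition.

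TJP1, the scaffold beneath the strands, gave no call. In vivo embryos held 34.6 to 53.0 CPM (median 40.3) and serum embryos 19.6 to 63.1 CPM (median 37.5), with B5, B7 and B2 below the in vivo range and B8 above it. The serum embryos thus lay on both sides of the in vivo embryos. Their log2 fold change was -0.12 (SE 0.22, adjusted p = 0.694), and it was 0.009 without B5.

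Among the fluid transport genes, AQP3 moved in the opposite direction to the claudins. In vivo embryos held 170.7 to 412.9 CPM (median 219.2) and serum embryos 221.0 (B1) to 927.2 CPM (B5), with a median of 431.9. B4, B6 and B8 lay below A6, the highest in vivo embryo, B1 lay among the other in vivo embryos, and 4 serum embryos lay above the in vivo range. The log2 fold change was 1.02 (SE 0.25, adjusted p = 0.00537). It was close to the 2-fold limit, and without B5, B3, A9 or A8 it was 0.83, 0.993, 0.962 and 0.997, so that the call was lost while the adjusted p stayed between 0.00812 and 0.0121.

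AQP11 divided the serum embryos. B2, B7, B3 and B5 held 148.6, 115.9, 100.8 and 97.3 CPM, and B6, B1, B8 and B4 held 35.4, 30.6, 26.9 and 13.6 CPM. In vivo embryos held 31.1 to 186.1 CPM (median 80.8). The first 4 serum embryos lay inside the in vivo range, and 3 of the other four below it. The log2 fold change was -0.31 (SE 0.43, adjusted p = 0.605).

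ATP1B1 was near the detection limit and was not tested in the comparisons of all embryos. In vivo embryos held 0.549 to 6.48 CPM (median 2.42) on 2 to 27 counts, serum embryos 3.43 to 9.47 CPM (median 6.69) on 12 to 55 counts, and serum-free embryos 0.677 to 10.8 CPM (median 5.20) on 4 to 48 counts. In serum 4 embryos lay above the highest in vivo embryo, A6. With every gene that had at least 1 count admitted, the log2 fold change was 1.37 for serum (adjusted p = 0.0744) and 1.05 for serum-free (adjusted p = 0.370). Without B1, the lowest serum embryo for this gene, the others passed the count limit and the log2 fold change was 1.50 (adjusted p = 0.00788); since that choice raises the serum mean and admits the gene through its higher group, nothing is read from that value.

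Seen by embryo, each of the 8 serum embryos had between 3 and 5 of the 8 genes below the in vivo range. CLDN6 and OCLN were below it in all 8. B1, B2, B5 and B7 had 5 genes below, among them the 3 claudins and OCLN, and B6 had the fewest, with CLDN6, CLDN7 and OCLN below and none above. B1, B5 and B7 are the 3 male serum embryos, and B2 is 1 of the 5 female. The other female serum embryos had 3 or 4 genes below. Among serum-free embryos, C1 and C3 had 4 genes below, C6 had 3, C2, C4, C8 and C10 had 2, and C7 had 0. The counts of serum and serum-free embryos thus overlapped. The share of all genes below the in vivo range in each embryo was not counted.

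The second question was how embryos produced without serum compared with the in vivo derived embryos. The same in vivo embryos served as controls in both comparisons. In serum-free embryos AQP11 was 2.54-fold lower and CLDN6 1.23-fold lower, and the other 5 genes tested did not pass. Of 7 genes tested, 1 was called, against 2.20% of all 7314 genes (0.588% called lower), and 2 passed at any fold, against 5.82%. None of the 7 separated the groups, as 0.971% of all genes did.

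AQP11 held 12.5 (C2), 17.3 (C3), 22.9 (C1), 26.0 (C6), 41.1 (C4), 49.0 (C7), 50.7 (C8) and 56.4 CPM (C10) in serum-free embryos. Here 4 of the 8 lay below the lowest in vivo embryo (A7, 31.1 CPM). The other four lay between A7 and A4 (58.6 CPM), the 2 lowest in vivo embryos. The log2 fold change was -1.35 (SE 0.33, adjusted p = 0.0203). In 1 fit over all 24 embryos it was -1.34 with an adjusted p of 0.113, so that the call was lost at the same size.

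CLDN6 ranged from 1598 to 1913 CPM in serum-free embryos (median 1706), with 7 of the 8 below the in vivo range and C7 inside it. The spread was small, with an SD of 95.0 CPM, and the log2 fold change was -0.30 (SE 0.09, adjusted p = 0.0405). The adjusted p lay close to the threshold: it was over 0.05 in 21 of 26 alternatives, with a range of 0.0164 to 0.400, and leaving out any embryo but C7 took it over.

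CLDN4, the gene with the widest spread in serum, held 363.7 to 821.3 CPM in serum-free embryos (median 535.2), all inside the in vivo range (log2 fold change -0.03, SE 0.20, adjusted p = 0.949). CLDN7 held 9.53 to 32.3 CPM (median 13.9), with C1 and C4 below the in vivo range (log2 fold change -0.70, SE 0.33, adjusted p = 0.219). OCLN held 94.7 to 312.1 CPM (median 244.9), with C8, C6 and C10 below the in vivo range and C8 far from the others (log2 fold change -0.45, SE 0.18, adjusted p = 0.145). None of these 3 genes passed.

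TJP1 was at 29.0 to 74.1 CPM (median 53.7) in serum-free embryos, with 4 embryos above and 1 below the in vivo range (log2 fold change 0.32, adjusted p = 0.327). AQP3 was at 156.3 to 387.0 CPM (median 221.2), nearly the median of the in vivo embryos (log2 fold change 0.02, SE 0.20, adjusted p = 0.964). C7 had none of the 8 genes below the in vivo range, and the other serum-free embryos had between 2 and 4.

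**Figure D3:**
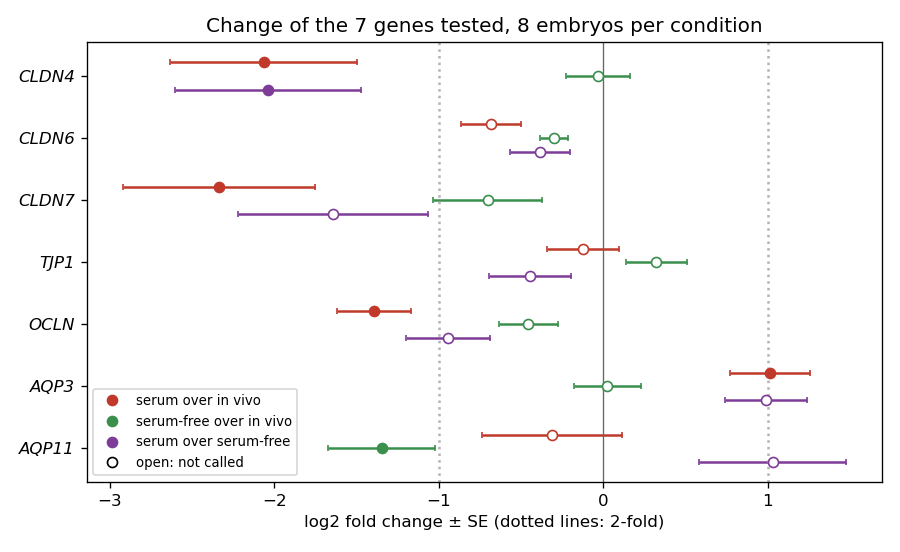
Log2 fold change ± SE (horizontal axis) of the 7 genes tested in the 3 comparisons of 8 against 8 embryos; filled points were called and open points were not, and dotted lines mark 2-fold. CLDN4, CLDN7 and OCLN are filled on the lower side and AQP3 on the higher side for serum over in vivo, and AQP11 alone is filled for serum-free over in vivo.

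The third comparison set the 2 culture media against each other, on the same serum and serum-free embryos. CLDN4 was 4.10-fold lower with serum (log2 fold change -2.04, SE 0.57, adjusted p = 0.0225), with only B6 (374.9 CPM) inside the serum-free range. It was the 1 gene called of 7, against 8.91% of all 7181 genes (5.36% called lower). CLDN4 reached the count limit in the serum-free embryos only, so this count is no support of a direction. At any fold 3 of the 7 passed, against 16.3%. OCLN was 1.92-fold lower (log2 fold change -0.94, SE 0.26, adjusted p = 0.0207) and AQP3 1.99-fold higher (log2 fold change 0.99, SE 0.25, adjusted p = 0.0148), both just under the 2-fold limit.

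CLDN6 separated the media, with the highest serum embryo at 1586 and the lowest serum-free embryo at 1598 CPM, as 2.37% of genes did, yet did not pass (log2 fold change -0.38, SE 0.18, adjusted p = 0.152). CLDN7 missed the threshold (log2 fold change -1.64, SE 0.58, adjusted p = 0.0568) and passed without B2, B4 or B8, at -1.44, -1.89 and -1.88. TJP1 (-0.45, adjusted p = 0.218) and AQP11 (1.03, SE 0.45, adjusted p = 0.115) did not pass. AQP3 was on the other side of the 2-fold limit without B1, B4, B6, B7, B8, C4, C7, C8 or C10, and OCLN without B5 or C8, so that the count of genes called moved between 1 and 3; OCLN was -1.05 without B5 and -1.04 without C8, and AQP3 was between 0.795 and 1.13 over all embryos left out.

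Within sexes, the male embryos gave the same 4 calls with serum as all embryos did, with fewer embryos. Of the 7 genes tested in male embryos (3 serum, 5 in vivo), 4 were called, against 13.3% of all genes. CLDN7 among them reached the count limit in the in vivo males only. Male serum embryos held 31.4, 59.7 and 94.7 CPM of CLDN4 against 356.2 to 720.0 in male in vivo embryos, a log2 fold change of -3.10 (SE 0.38, adjusted p = 7.224e-04). OCLN was at 103.3, 114.3 and 200.8 CPM against 328.7 to 436.9 (log2 fold change -1.41, adjusted p = 0.00318). CLDN7 changed by -2.66 (adjusted p = 0.0289), CLDN6 by -0.63 (adjusted p = 0.0161) and AQP3 by 1.35 (adjusted p = 0.0177). Without B5 AQP3 was 0.699 (adjusted p = 0.0721), and CLDN7 was no longer called without B7, A1, A2 or A8, with adjusted p from 0.0514 to 0.0707.

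In female embryos (5 serum, 3 in vivo) none of the 8 genes tested was called, against 0.418% of all genes. The estimates were -1.87 for CLDN4 (SE 0.92, adjusted p = 0.275), -2.02 for CLDN7 (adjusted p = 0.240), -1.16 for OCLN (SE 0.36, adjusted p = 0.130), -0.64 for CLDN6 (adjusted p = 0.309) and 0.68 for AQP3 (adjusted p = 0.231). All 5 had the sign they had in males. CLDN4 and CLDN7 reached the count limit in the in vivo females only, and so entered because they were higher there. Their signs are thus no support of a direction. Female serum embryos lay below every female in vivo embryo for CLDN4 (at most 374.9 against at least 467.2 CPM) and OCLN (158.5 against 230.6). The same held for CLDN6 (1529 against 1893) and CLDN7 (11.9 against 19.2). The share of all genes that separated so few embryos was not counted. In simulated data this comparison recovered 43% of 4-fold changes, against 72% in males, so the absence of calls does not show an absence of change. DESeq2 called OCLN in females (log2 fold change -1.18, adjusted p = 0.0449). In serum-free males, AQP11 was called (30.3 against 102.5 CPM in the mean, log2 fold change -1.75, SE 0.37, adjusted p = 0.0355), the 1 call of 7 against 0.966%, but it was lost without C2, C6 or any in vivo male, with adjusted p up to 0.0966. In serum-free females none of 7 was called, against 0.304% of all genes, and AQP11 was at -0.61 (adjusted p = 0.614).

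The difference between the sexes was tested as an interaction of sex and culture. None of the genes examined passed, and of all genes 0% did, that is 0 of 8446 for serum and 0 of 8425 for serum-free by edgeR's quasi-likelihood test, with 436 and 555 at an unadjusted p under 0.05. Male change minus female change was -1.20 for CLDN4 with serum (SE 1.10, adjusted p = 0.998) and -1.13 for AQP11 without serum (SE 0.65, adjusted p = 0.817). Between male and female embryos of the same condition none of these genes passed either, where 0.653% (in vivo), 0.173% (serum) and 0.139% (serum-free) of all genes were called.

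The cells of the sealed epithelium were followed through marker genes. Summed over the 9 trophectoderm markers analysed of 10 listed, in vivo embryos held 7162 to 14650 CPM (median 10760), serum-free embryos 4846 to 28140 (median 8258) and serum embryos 102.5 to 5043 (median 1119). No trophectoderm marker was at 0 in all embryos of a condition. With serum 6 of the 7 tested were called lower, against 7.34% of all genes: the keratins KRT8 (log2 fold change -3.05), KRT18 (-2.66) and KRT19 (-3.52), the transcription factors GATA2 (-1.98) and GATA3 (-1.88), and interferon tau, IFNT (-2.54). A marker could enter the test through the in vivo embryos alone. How many of the 6 did so was not counted, so this count is no support of a direction. None of 7 was called without serum. TEAD4, the transcription factor upstream of trophectoderm fate, was not called (0.71, adjusted p = 0.105).

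The serum embryos with the lowest marker sums were B2 (102.5 CPM), B7 (209.6) and B5 (353.7), and those with the highest were B8 (5043) and B6 (2598). B2 and B7 also held the lowest CLDN4 and CLDN7, and B6 the highest CLDN4. The claudins did not keep that order throughout. B4, with a marker sum of 1000 CPM, held more CLDN4 than B8 (327.0 against 191.4 CPM) and the highest CLDN7 (11.9 CPM). OCLN did not follow that order either, since its highest serum value was in B5 and its lowest in B3 (marker sum 1355). AQP3 was highest in B5. The part of the marker difference in the junction results was not tested.

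**Figure D4:**
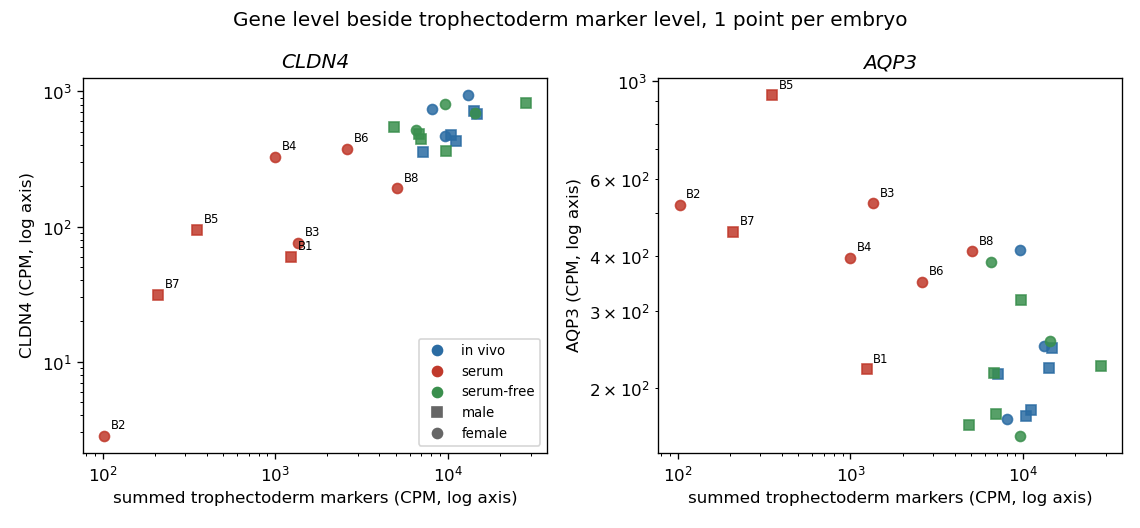
CLDN4 (left) and AQP3 (right) in CPM on the vertical axis against the summed CPM of trophectoderm markers on the horizontal axis, both log axes, 1 point per embryo with serum embryos named. The serum embryos other than B8 and B6 hold at most 1355 CPM of the markers, and B2 is lowest on both axes of the left panel.

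Other cell types were followed in the same way. The 7 inner cell mass markers analysed of 8 summed to 598.8 to 883.6 CPM in vivo, 474.9 to 1016 with serum and 529.9 to 795.9 without, and SOX2 was called higher with serum (1.25, adjusted p = 0.0271). SOX2 was the 1 called of 4 inner cell mass markers tested, against 6.43% of all genes called higher. The median log2 fold change of the 4 was 0.06. The 8 hypoblast markers summed to 367.1 to 627.1, 27.9 to 266.6 and 154.4 to 461.4 CPM. PDGFRA was called lower in both comparisons with in vivo embryos (-2.04 and -1.01). It was the 1 called of 4 hypoblast markers tested in each, against 7.34% and 0.588% of all genes called lower. The groups through which SOX2 and PDGFRA entered the test are not reported here. Markers of cells that could cling to an embryo were low: cumulus and granulosa cells (9 of 10 analysed) summed to at most 58.7 CPM in any embryo, maternal oviduct and uterine epithelium (6 of 9) to at most 18.7, and blood cells (5 of 6) to at most 12.7. Of the cumulus markers 1 was tested against in vivo embryos and none was called, and no marker of the maternal epithelium or blood lists reached the count limit.

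The partners of the 9 genes were taken from 11 lists, 163 of whose 174 genes were analysed. The lists hold other junction and fluid transport genes, and also epithelial transcription factors and splicing regulators, claudin proteases and membrane regulators, and mesenchymal genes. The calls of all 11 lists, among them that of mesenchymal FN1, are counted together here. With serum, 23 of the 75 tested were called, 21 lower and 2 higher, which is 30.7% against 13.8% of all genes, and their median log2 fold change was -0.62 against 0.02 over all genes. Without serum 0 of 76 were called by edgeR's quasi-likelihood test, against 2.20%, with a median of -0.03, and 4 passed at less than 2-fold. Between the media, 17 of 72 (23.6% against 8.91%) were called, 14 lower and 3 higher with serum. Of the 21 genes called lower with serum, 10 reached the count limit in the in vivo embryos only, and so entered because they were higher there, as did 1 of the 2 called higher through the serum embryos. Between the media the same holds for 6 of the 14 lower and 1 of the 3 higher, so that these counts are no support of a direction. Counts by list stand against 13.8% of all genes called with serum and 7.34% called lower, and those of 2 in 10 or 11 genes are near the former.

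At the tight junction, TJP3, a scaffold of the same family as TJP1 and read likewise from its older symbol ZO3, was 3.73-fold lower with serum (13.5 against 50.3 CPM, log2 fold change -1.90, SE 0.30, adjusted p = 2.809e-04) and 4.13-fold lower than without serum (adjusted p = 0.00333). MARVELD2 (tricellulin), which closes the corners where 3 cells meet, was at 8.72 against 48.5 CPM (-2.49, SE 0.56, adjusted p = 0.00363). These were the 2 genes called of the 11 tight junction genes tested; F11R (JAM-A), CGN (cingulin) and LSR (angulin) gave -0.27, -0.13 and -0.01 with serum and did not pass. F11R (-0.44, adjusted p = 0.0221) and LSR (-0.67, adjusted p = 0.00322) passed without serum at less than 2-fold.

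Of the 18 other claudins analysed, 2 were tested against in vivo embryos with serum and 3 without, and none was called. CLDN10 was at 79.5 CPM with serum against 184.2 in vivo (-1.23, adjusted p = 0.0524). CLDN1 was called between the media: serum embryos held 0 to 0.307 CPM, on 0 or 1 count each, in vivo embryos 1.18 to 11.5 and serum-free embryos 5.61 to 15.2. Serum embryos were thus below every other embryo for CLDN1. Of all genes tested between the media, 2.37% separated the groups. CLDN1 reached the count limit in the serum-free embryos only, so its call is no support of a direction.

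In the adherens junction list 8 of 10 genes tested passed with serum, all lower, and 5 of them were called. EPCAM, an epithelial adhesion protein that binds claudins, was at 105.6 against 430.2 CPM (4.12-fold lower, log2 fold change -2.04, SE 0.30, adjusted p = 1.577e-04). PVRL2 (nectin-2) was 4.01-fold, LIMA1 2.65-fold, JUP (plakoglobin) 2.61-fold and VCL (vinculin) 2.08-fold lower. Further, 3 catenins, partners of E-cadherin at adherens junctions, passed edgeR's quasi-likelihood test at less than 2-fold. CTNND1 (p120) was at 442.9 against 850.9 CPM (-0.96, SE 0.14, adjusted p = 1.448e-04). CTNNA1 was at -0.93 (adjusted p = 0.0338) and CTNNB1 (beta-catenin) at -0.46 (adjusted p = 0.0229). Without serum the same 3 catenins were at -0.21, 0.02 and 0.06, and none passed. CTNNA2 was below the count limit throughout. E-cadherin itself, CDH1, was not analysed here.

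The desmosomes gave 2 calls of 7 tested with serum, DSP (desmoplakin, -1.74) and PERP (-1.52, adjusted p = 6.673e-05). Among apical polarity genes 2 of 10 were called lower, INADL (PATJ, 19.5 against 107.0 CPM, -2.47, adjusted p = 0.00128) and PRKCZ (atypical protein kinase C zeta, -1.54, adjusted p = 0.0115). INADL was also lower than without serum (-1.92, adjusted p = 0.0171), as were DSP and PERP (-1.67 and -1.33).

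For the sodium pump, 4 subunits or FXYD regulators were tested with serum and none was called. Of the 4, 2 passed lower at less than 2-fold, ATP1B3 and another gene that is not reported here. ATP1B3, a further beta subunit, was at 554.8 against 956.6 CPM with serum without overlap (-0.80, SE 0.14, adjusted p = 7.714e-04). ATP1B2 was at -0.47 (adjusted p = 0.483) and FXYD6 at -1.31 (adjusted p = 0.0987). Without serum ATP1B3 was at 0.02. Both beta subunits tested thus had a negative estimate with serum, where ATP1B1 had the higher values described above.

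Among transporters that load the cavity with ions, 3 of 7 were called with serum. SLC12A2, the sodium, potassium and chloride cotransporter, was at 25.6 against 5.50 CPM (log2 fold change 2.20, SE 0.65, adjusted p = 0.0166) and at 8.10 CPM without serum. SLC9A3R1, the scaffold of sodium and proton exchangers, was 3.71-fold lower (adjusted p = 0.0162) and SLC4A2, a chloride and bicarbonate exchanger, 2.09-fold lower (adjusted p = 0.0229). WNK4, a kinase that regulates chloride cotransport and claudins, was at 104.8 against 44.8 CPM (1.21, SE 0.22, adjusted p = 8.810e-04). SLC12A2, WNK4 and AQP3 were thus the genes called higher with serum among the fluid transport genes and regulators. None of the 9 other aquaporins analysed reached the count limit.

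Among 15 proteases and membrane regulators of claudins tested, 5 were called lower with serum. PRSS8 (prostasin), a membrane serine protease, was at 14.8 to 113.8 CPM in vivo and at 0 to 0.909 CPM with serum, on 0 to 5 counts per embryo, and at 5.82 to 322.6 CPM without serum. ST14 (matriptase), which activates prostasin, was 7.77-fold lower with serum (1.84 against 14.0 CPM, adjusted p = 0.00267). Their inhibitors SPINT1 and SPINT2 were 6.63-fold (adjusted p = 0.0113) and 2.50-fold (adjusted p = 0.00276) lower. MYH9, the non-muscle myosin of the junctional actin belt, was 2.02-fold lower (adjusted p = 0.0239 by edgeR's quasi-likelihood test). With 0 to 5 counts per serum embryo, PRSS8 entered the test through the in vivo embryos only, as did ST14 at its mean of 1.84 CPM. The lower calls of these 2 proteases are thus no support of a direction. The groups through which SPINT1, SPINT2 and MYH9 entered are not reported here.

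Of 7 epithelial transcription factors and splicing regulators tested, GRHL1 (3.16-fold lower, adjusted p = 0.0200) and OVOL1 (3.23-fold lower, adjusted p = 0.0137) were called with serum. ESRP2, which directs epithelial splicing, was 2.35-fold lower than without serum (adjusted p = 0.00452), and KLF4 was higher (1.12, adjusted p = 0.0170). In the mesenchymal list, FN1 (fibronectin) was 3.94-fold lower with serum than in vivo (1392 against 5399 CPM, adjusted p = 0.0143), and SNAI1, a repressor of CDH1, was higher with serum than without (1.41, adjusted p = 0.0358) but did not pass against in vivo embryos (0.44, adjusted p = 0.368).

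The genes whose levels followed each called gene most closely over the 24 embryos were found by Pearson correlation of log2(CPM + 1) over 6512 genes. These are descriptions, since all values of an embryo share its library and the culture conditions add to each correlation. CLDN4 was followed by FCHSD2 and SLC44A2 (r = 0.942 each) and LONP2 (0.939), with r of 0.956 to 0.964 over the 8 serum embryos alone. CLDN7 was followed by PPDPF_1 (0.934), SUSD2 (0.896) and EPCAM (0.879). For OCLN they were NDUFS1 (0.917), SNAP23 (0.863) and TTYH2 (0.861), and for AQP3 CRYM (0.814), ESPL1 (0.802) and SLC5A6 (0.785). AQP11 had the weakest neighbours, CLK4 (0.692), C16orf70 (0.678) and EEF2 (0.658). No gene was named for 2 of the 5.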

How the data were processed

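Single bovine early blastocysts were profiled by paired-end RNA sequencing of amplified cDNA, without strand information. After trimming and mapping to the genome build UMD 3.1, the authors deposited raw, unnormalized counts of uniquely mapped exon fragments for each gene in each embryo. Reads that map to more than 1 place are absent, and reads of overlapping antisense genes cannot be told apart. Condition and sex came from the labels; all 24 count columns matched an embryo, and no 2 embryos held identical counts.

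The quasi-likelihood test of edgeR 4.0.16 with TMM factors was run in R 4.3.3, a separate fit for each pair of groups. Genes with 15 or more counts in all embryos of 1 or both groups were tested, and called with a Benjamini-Hochberg adjusted p under 0.05 over all genes tested and a change of at least 2-fold. CPM used TMM factors over all 24 embryos, and log2 values a pseudocount of 1. The approximate SE is the estimate divided by the root of its F statistic. The tests were tested on simulated data. A count of 3 corresponded to at most 9.222e-05% of an embryo's total, for counting error only.

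Alternatives were DESeq2 1.42.0, the exact test of edgeR, DESeq2 size factors, limits of 1 count in any embryo or 15 in every embryo of both groups, 1 fit over all 24 embryos, sex as covariate, thinned counts, the embryo number as a block, leaving out each embryo and, chosen after seeing the data, library totals over all genes and DESeq2 and the exact test for the sexes and DESeq2 for the interaction.

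The genes, the 11 lists and the 6 marker lists were chosen with earlier results of these data known, and so were the tests. Genes named are the 9 genes, list genes called in any comparison of all embryos, sodium pump subunits, catenins, markers that bear on a result, and for each gene called the 3 genes (mean of at least 10 CPM) with the highest correlation. F11R, CGN, LSR, CLDN10, FXYD6 and TEAD4 were named outside this rule, after their values were seen. Gene lengths and sequences were not used here, and some genes of the lists are not reported here.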

Additional observations from a re-analysis of the deposited data

Results flagged for a closer look

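Among the 8 genes, 48 groups of 5 or 8 embryos were searched for a single embryo far from the others. The measure was the gap to its nearest neighbour as a share of the group's range, in CPM. In all, 6 were found. Chance gives about 1 in 20 for independent, normally distributed values. Here the CPM were not on a log scale and the groups of 5 lie within those of 8, so the 6 are not set against that rate. B2 was the lowest serum embryo for CLDN6, at 450.2 CPM against 1312 for the next of 8, and against 1432 for the next of the 5 female serum embryos. C8 was the lowest serum-free embryo for OCLN, at 94.7 CPM against 227.9. B5 was the highest serum embryo for AQP3, at 927.2 CPM against 527.2. A6 was the highest in vivo embryo for AQP3, at 412.9 CPM against 249.1, and for ATP1B1, at 6.479 CPM against 3.153, the latter on 27 counts. Without A6 the log2 fold change of AQP3 with serum was 1.22 (adjusted p = 0.00165 by edgeR's quasi-likelihood test).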

How the results depend on the processing

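In the comparison of all serum with all in vivo embryos, CLDN7 and OCLN kept their direction and call under every alternative that tested them; the exceptions within sexes stand above. With serum against in vivo embryos, the genes called numbered 1 with 15 counts asked of both groups (CLDN4 and CLDN7 were then not tested, and AQP3 fell to 0.951). Over embryos left out they numbered 3 to 5. Other genes called, those of the 11 lists, numbered 14 with 15 counts asked of both groups. Without serum the count was 0 in the fit over all 24 embryos (AQP11 at -1.34, adjusted p = 0.113), and other genes called numbered 0 to 1 over embryos left out. Between the media the count was 2 with DESeq2, with the exact test, with the 1-count limit and with library totals over all genes, 3 in the fit over all 24 embryos, 0 with 15 counts in both groups, and 1 to 3 over embryos left out; other genes called numbered 11 with 15 counts in both groups and 10 to 20 over embryos left out. In males without serum the count was 0 to 1 over embryos left out, and in females with serum it was 1 with DESeq2. Signs turned only for values near 0 that were never called: AQP3 without serum was -0.001 with the 1-count limit and -0.118 to 0.195 over embryos left out, CLDN4 without serum -0.113 to 0.100, and TJP1 with serum -0.259 to 0.009.

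Embryo numbers did not pair the embryos: over 7 same-numbered pairs in each of the 3 comparisons the correlations of deviations lay between -0.127 and 0.0882. With the number as a replicate block, the genes called numbered 2 with serum (CLDN4 at -2.68, adjusted p = 0.0553), 0 without serum and 0 between the media, other genes called between the media numbered 2, and CLDN4 and AQP3 without serum were 0.068 and -0.134.

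Low counts limit ATP1B1, at most 55 per embryo, and CLDN7 in serum, with 0, 2 and 7 counts in B2, B7 and B3.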

Other observations

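Within the serum embryos, AQP11 and CLDN7 took opposite orders except in B5 and B6. B5 held more than B6 of both genes, CLDN7 at 5.96 against 5.59 CPM and AQP11 at 97.25 against 35.43 CPM. B2, B7 and B3, with 0 to 1.62 CPM of CLDN7, held 100.8 to 148.6 CPM of AQP11. B4 and B8, with 11.9 and 11.6 CPM of CLDN7, held 13.6 and 26.9 CPM of AQP11. Over the 8 serum embryos the Pearson correlation on the log2 scale was -0.873, given as a description of a pair chosen after its values were seen. The 4 serum embryos with the highest AQP11 (B2, B3, B5 and B7) were also the 4 with the highest AQP3, at 454.0 to 927.2 CPM, while the count ratio of AQP3 to AQP11 was 3.51 to 29.2 over all serum embryos, 1.33 to 8.01 in vivo and 4.59 to 17.4 without serum.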
